A study of Mus musculus with 19 samples.

Results

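Keratins and biliary progenitor markers were described here as 9 listed genes, a list set down with earlier results of these data known. These genes were the keratins Krt8, Krt18, Krt7, Krt19 and Krt23, the transcription factor Sox9, the surface proteins Epcam and Cd24a, and the secreted protein Spp1. They were found by symbol in a deposited table of 19486 named genes, which lists them in capitals as KRT8, KRT18, KRT7, KRT19, KRT23, SOX9, EPCAM, CD24A and SPP1, and all 9 were present. RNA had been sequenced from 19 mouse liver tumor samples in 5 labelled groups. These were MYC_Recur, MYC_Twist1_OFF and MYC_OFF with 3 libraries each, and MYC_Twist1_HCC and MYC_HCC with 5 each, HCC standing for hepatocellular carcinoma. The labels give the tissue and the group name but no strain, promoter, inducing agent, age or time for any group, and do not say whether the libraries of a group came from separate animals. The HCC libraries are labelled as re-analysed from an earlier deposit and the others carry no such label, so group and deposit cannot be told apart where MYC_OFF, MYC_Recur or MYC_Twist1_OFF is set against an HCC group. MYC_Recur against MYC_OFF, MYC_Twist1_OFF against MYC_OFF and MYC_Twist1_HCC against MYC_HCC each compare libraries that are alike in this label. The titles do not say whether such libraries were prepared or sequenced together.

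Keratins are the intermediate filament proteins of epithelia. An acidic keratin and a basic keratin pair to build each filament, and in healthy liver hepatocytes carry keratin 8 paired with keratin 18, while bile duct cells also carry keratin 7, keratin 19 and often keratin 23. Sox9, Epcam, osteopontin (the product of Spp1) and Cd24 mark bile duct cells and the progenitor-like cells that appear in injured liver, and several are used to describe liver tumors with biliary features. In bulk tissue, fewer cells of a type and less RNA per cell cannot be told apart.

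The values are normalized signals of an unstated formula, so sequencing depth is unknown, levels were not compared between genes, and a 0 is given as listed. Library totals ran from 507868 to 690310. The 10 highest genes of a library held 21.0% to 28.8% of its total in the OFF libraries and 6.9% to 12.7% in the others. Myc, the labelled oncogene, lay between 152 and 159 in MYC_Recur, 32.5 and 45.7 in MYC_Twist1_OFF, 33.9 and 59.8 in MYC_OFF, 102 and 153 in MYC_Twist1_HCC and 129 and 180 in MYC_HCC. Twist1 was at most 0.27 in any library, so its values check no label. Albumin, the main hepatocyte product, averaged 1819 ± 438 in MYC_Recur, 267 ± 22.7 in MYC_Twist1_OFF, 321 ± 80.4 in MYC_OFF, 1113 ± 279 in MYC_Twist1_HCC and 2407 ± 1262 in MYC_HCC (mean ± SD here and for later genes, with the n given for each group above). MYC_HCC 4 and MYC_HCC 5 stood apart from the rest of their group, for example in the noncoding RNA Bc1 (190 and 414, against 4587 to 6115 in the other 3). Test results that rest on them are given with and without them, and correlations with them only. Group differences were tested with limma on log2(value + 1) over 13253 genes, with p-values adjusted over all of them, and a gene was called at an adjusted p under 0.05. MYC_OFF and MYC_HCC each enter 3 of the pairwise comparisons, so these are not independent of each other.

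Of the 9 genes, 6 passed the filter on low values (a value of at least 1 in at least 3 libraries): Krt8, Krt18, Krt7, Epcam, Spp1 and Cd24a. Krt19, Sox9 and Krt23 did not. In MYC_OFF against MYC_HCC, Krt18 and Cd24a rose and Krt8 and Spp1 fell, and the same 4 genes were called in the same directions in MYC_Twist1_OFF against MYC_Twist1_HCC. In MYC_Recur against MYC_OFF the 4 were called in the opposite directions. Of all tested genes, 58.3% were called in the first of these comparisons (18.9% higher and 39.4% lower), 46.6% in the second (13.1% higher and 33.5% lower) and 49.4% in the third (37.5% higher and 12% lower), so 4 calls among 6 genes are near the background and the sizes and library values carry the description. The median log2 fold change of all tested genes was -0.38, -0.32 and 0.45 in these comparisons. Relative to that shift, Krt18 moved by 4.46, 2.99 and -6.23, Cd24a by 2.39, 1.80 and -2.90, Krt8 by -2.35, -1.34 and 1.51, and Spp1 by -1.21, -0.76 and 0.52.

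**Figure D1:**
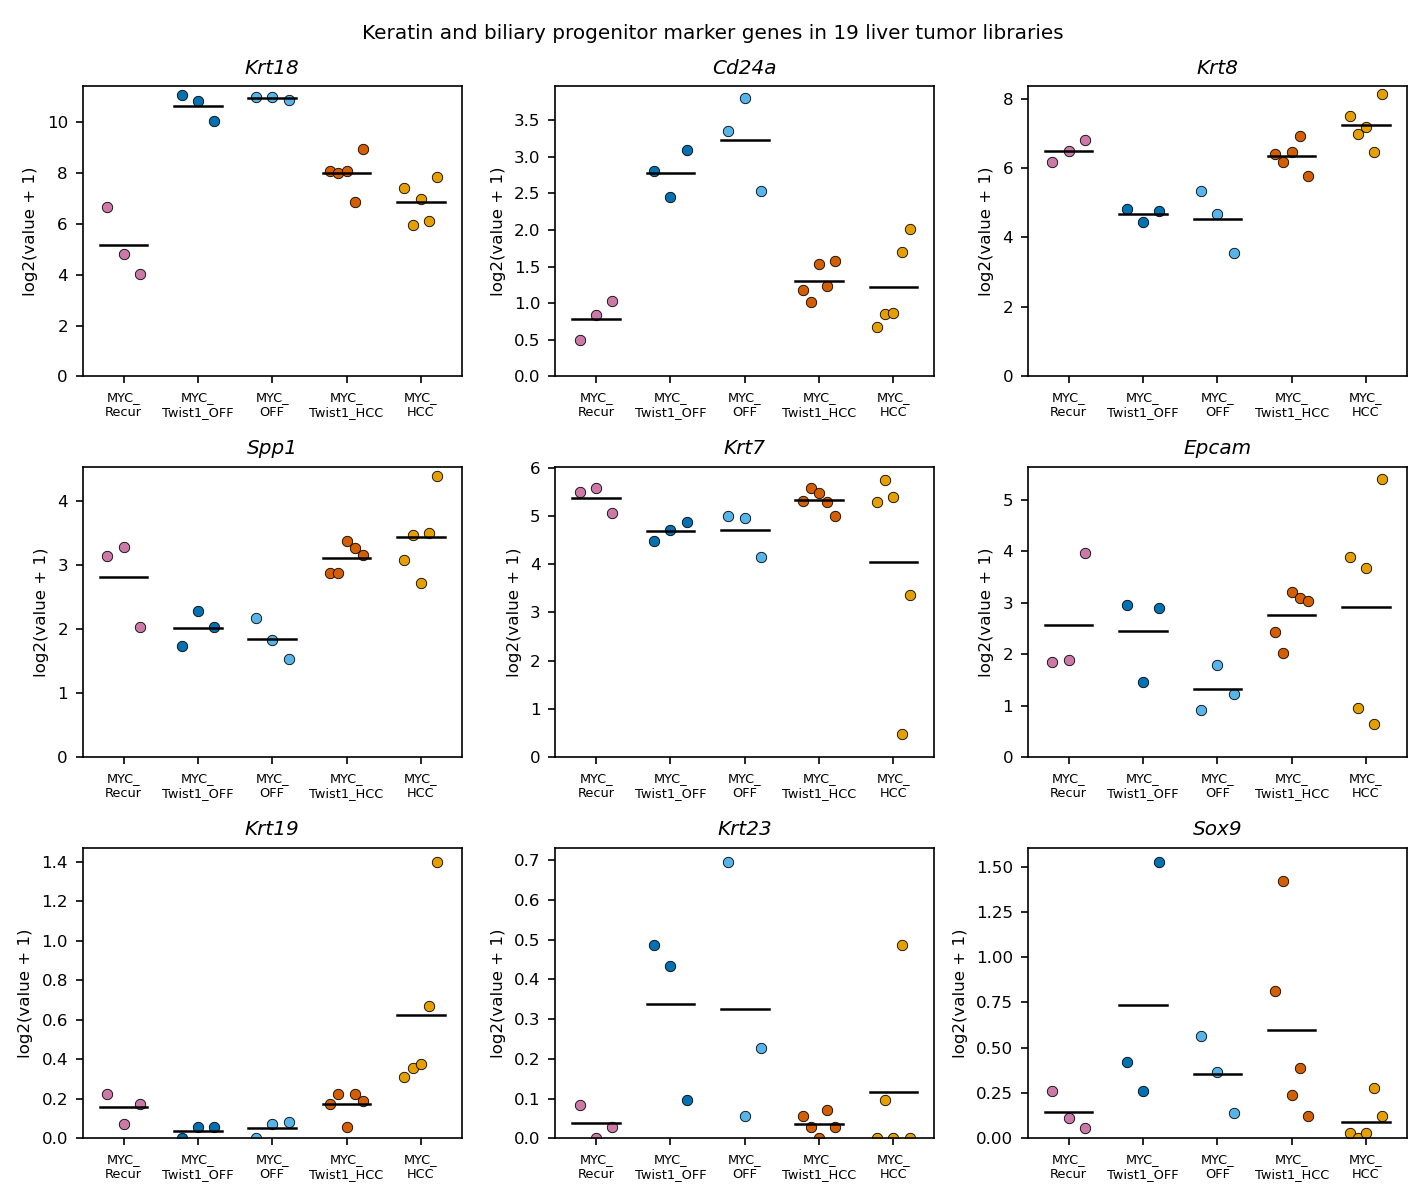
Values of the 9 genes in each of the 19 libraries, as log2(value + 1) on a separate vertical axis for each gene, by labelled group; each point is 1 library and each bar the group mean. Krt18 and Cd24a are highest in MYC_Twist1_OFF and MYC_OFF, Krt8 is lowest there, and Krt19, Krt23 and Sox9 stay under 2 as deposited values in every library.

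Krt18 encodes the acidic keratin of hepatocyte filaments and lies on chr15:102028180-102032027, plus strand, in GRCm38. Krt8 encodes its basic partner and lies on chr15:101996698-102004482, minus strand. The genes are neighbours, read away from each other, with 23697 bases between their annotated starts and no annotated gene wholly within that gap. Because this pair moved in opposite directions, the annotated promoter stretch of each is shown, with that of Spp1, which moved with Krt8. The stretches are from RefSeq on GRCm38.p6, run 5′ to 3′ on the gene's strand, and were ended before the first annotated exon of each gene. They lie at chr15:102027966-102028179 (plus), chr15:102004483-102004592 (minus) and chr5:104434861-104435110 (plus, the first of 2 windows listed for Spp1). Krt8 overlaps the noncoding gene Gm36026 on the opposite strand, Krt7 overlaps Gm671 on the opposite strand and Spp1 overlaps Gm42793 on its own strand. Whether counting used strand is not given in the sources used here, so reads of those pairs cannot be told apart, and reads shared with near-identical processed copies of Krt8 or Krt18 are uncertain. Capitals mark the matches described after the sequences.
Krt18: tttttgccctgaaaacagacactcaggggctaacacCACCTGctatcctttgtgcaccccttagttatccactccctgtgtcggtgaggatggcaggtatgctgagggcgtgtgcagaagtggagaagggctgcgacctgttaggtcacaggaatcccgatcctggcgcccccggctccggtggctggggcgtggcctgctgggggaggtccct
Krt8: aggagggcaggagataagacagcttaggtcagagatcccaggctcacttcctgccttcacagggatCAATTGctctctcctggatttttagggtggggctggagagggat
Spp1: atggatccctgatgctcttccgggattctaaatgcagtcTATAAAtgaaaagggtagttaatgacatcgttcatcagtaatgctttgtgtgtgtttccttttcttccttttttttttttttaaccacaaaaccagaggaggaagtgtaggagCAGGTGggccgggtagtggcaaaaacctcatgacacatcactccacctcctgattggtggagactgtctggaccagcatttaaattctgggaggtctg

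These stretches were searched on both strands for CACGTG, the E-box that MYC with MAX is known to bind, for the general E-box CANNTG, which contains it and which TWIST1 and other helix-loop-helix proteins are known to bind, for TATAAA, and for TGANTCA, the AP-1 letters. CANNTG was found once in each stretch, and its letters are in capitals there. Among 32817 annotated promoter windows cut to the same length, it was present in 61.3% at the length used for Krt18, 39.0% for Krt8 and 66.2% for Spp1. TATAAA was found once, in the Spp1 stretch, and in 12.4% of windows of that length. CACGTG and TGANTCA were not among the letters of these windows, where 1.95% to 6.02% and 2.79% to 6.75% of windows of those lengths held them. A match is a description of letters only.

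Krt18 showed the widest range of the 9 genes. Its values were 101, 27.0 and 15.4 in MYC_Recur, 2164, 1833 and 1064 in MYC_Twist1_OFF, and 2023, 2054 and 1864 in MYC_OFF. They were 274, 255, 268, 116 and 489 in MYC_Twist1_HCC and 169, 61.9, 125, 67.9 and 230 in MYC_HCC. The 6 OFF libraries stood above the other 13 with no overlap, and the lowest pair were MYC_Recur 2 and MYC_Recur 3. How many of all tested genes separate the OFF libraries in the same way was not counted, for Krt18 or for the later genes. The log2 fold change of Krt18 in MYC_OFF against MYC_HCC was 4.09 (SE 0.53, 17.0-fold, limma adjusted p = 5.033e-06). For MYC_Twist1_OFF against MYC_Twist1_HCC it was 2.66 (SE 0.53, 6.33-fold, adjusted p = 0.0006172), and for MYC_Recur against MYC_OFF it was -5.78 (SE 0.60, adjusted p = 1.663e-06). No single library decided these 3 calls, which passed in all 19 fits that each omitted 1 library.

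In a comparison that lies across deposits, Krt18 was lower in MYC_Recur than in MYC_HCC (47.7 ± 46.4, n = 3, against 131 ± 70.9, n = 5; log2 fold change -1.69, SE 0.53, limma adjusted p = 0.04892). It was the 1 of the 6 genes called there, where 10.8% of tested genes were called (6.90% higher and 3.93% lower). The groups overlapped, since MYC_Recur 1 at 101 lay above 2 of the MYC_HCC libraries, and the call was lost with 14 of the 19 libraries left out in turn. Without MYC_Recur 3 the log2 fold change was -1.13 (adjusted p = 0.2719), and without MYC_HCC 4 and 5 it was -1.62 (adjusted p = 0.1132).

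Krt8 had values of 70.5, 88.4 and 110 in MYC_Recur, 27.4, 20.7 and 26.1 in MYC_Twist1_OFF, and 39.4, 24.4 and 10.8 in MYC_OFF. In the HCC groups they were 83.2, 71.1, 86.4, 119 and 53.4 in MYC_Twist1_HCC and 179, 126, 145, 87.0 and 280 in MYC_HCC. All 6 OFF libraries lay below the other 13, the reverse of Krt18, with the nearest values at 39.4 in MYC_OFF 1 and 53.4 in MYC_Twist1_HCC 5. Krt8 fell by 2.73 on the log2 scale in MYC_OFF against MYC_HCC (SE 0.37, 6.64-fold, limma adjusted p = 7.361e-06) and by 1.66 in MYC_Twist1_OFF against MYC_Twist1_HCC (SE 0.37, 3.17-fold, adjusted p = 0.001438). It rose by 1.96 in MYC_Recur against MYC_OFF (SE 0.41, 3.89-fold, adjusted p = 0.0007959). MYC_Recur did not pass the test against MYC_HCC (-0.77, 95% interval -1.55 to 0.0067, adjusted p = 0.2054).

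The product of a keratin pair is a filament of both partners, so the ratio of Krt18 to Krt8 was followed within each library, as a description with no test because the divergence of the pair was already known. Only changes of the ratio between groups are readable, since the values are not known to be per length. Its median was 0.305 in MYC_Recur (0.140 to 1.43), 79.1 in MYC_Twist1_OFF (40.7 to 88.5), 84.2 in MYC_OFF (51.3 to 173), 3.29 in MYC_Twist1_HCC (0.9748 to 9.16) and 0.823 in MYC_HCC (0.493 to 0.947). The lowest OFF ratio, 40.7, exceeded the highest ratio outside the OFF groups, 9.16. Within the HCC groups the ratio was higher in all 5 MYC_Twist1_HCC libraries than in any MYC_HCC library. Neither gene passed the test there: Krt18 differed by 1.13 (95% interval 0.16 to 2.10, adjusted p = 0.141) and Krt8 by -0.91 (95% interval -1.59 to -0.24, adjusted p = 0.0913), in a comparison that called 6.43% of tested genes. The Krt8 difference was called when MYC_HCC 4 was left out (-1.11, adjusted p = 0.0473, in a fit that called 5.84% of genes).

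**Figure D2:**
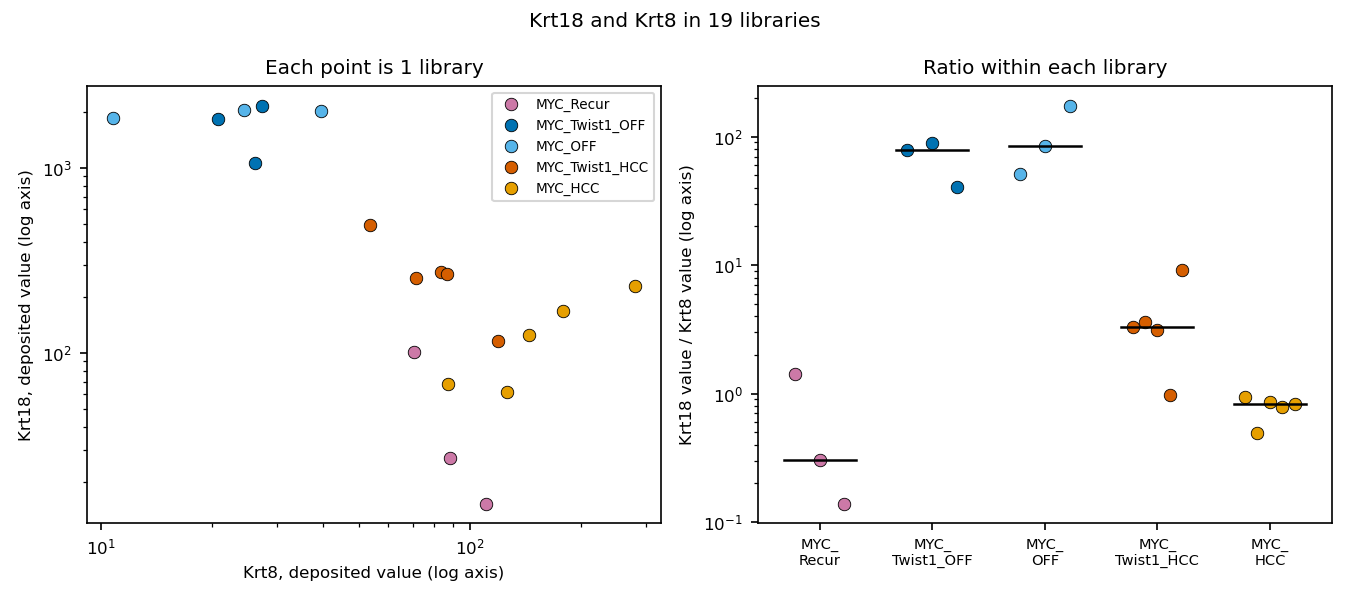
Left, the deposited Krt18 value against the deposited Krt8 value on log axes, 1 point per library, coloured by group; right, the ratio of the values within each library on a log axis, with a bar at the group median. The 6 OFF libraries form the upper left of the left panel, with ratios of 40.7 to 173, and the other 13 libraries have ratios of 0.140 to 9.16.

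The OFF difference was also compared between the tumor types, as the MYC_Twist1_OFF minus MYC_Twist1_HCC difference less the MYC_OFF minus MYC_HCC difference. It was -1.42 for Krt18 (95% interval -3.01 to 0.16, limma adjusted p = 0.663) and 1.07 for Krt8 (95% interval -0.030 to 2.17, adjusted p = 0.650). None of the 6 genes was called in this contrast, in which 0.0981% of tested genes were. MYC_Twist1_OFF against MYC_OFF likewise called none of the 6, with 0.00755% of tested genes called. At an unadjusted p under 0.05 the count was also 0 of 6 in both contrasts, and it was 2 of 6 in MYC_Twist1_HCC against MYC_HCC. The share of all tested genes at that unadjusted threshold was not counted, here or for the lists below, so these counts have no background. In MYC_Twist1_OFF against MYC_OFF, Krt18 differed by -0.29 (95% interval -1.55 to 0.96), Krt8 by 0.16 (-0.71 to 1.03) and Cd24a by -0.45 (-1.21 to 0.31), intervals wide enough to hold differences of more than 1 on the log2 scale.

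Krt7, a basic keratin of bile duct cells (chr15:101411043-101430313, plus strand), was present in all groups. It had values of 44.2, 47.0 and 32.2 in MYC_Recur, 21.3, 25.2 and 28.2 in MYC_Twist1_OFF, and 31.1, 29.8 and 16.8 in MYC_OFF. It had 38.8, 46.6, 43.3, 38.1 and 30.9 in MYC_Twist1_HCC, against 37.9, 52.7, 40.7, 0.39 and 9.26 in MYC_HCC. The 2 low MYC_HCC values are those of MYC_HCC 4 and 5, the libraries in which Bc1 was also low, and no comparison called Krt7 in the fit of all 19 libraries. A fit of only MYC_Twist1_OFF and MYC_Twist1_HCC, which called 54.4% of genes, called it lower in MYC_Twist1_OFF (-0.64, adjusted p = 0.01246). Without MYC_HCC 4 and 5, the 5-group fit called Krt7 lower in MYC_OFF than in MYC_HCC (log2 fold change -0.77, adjusted p = 0.0130, against 0.65 and adjusted p = 0.489 with them), lower in MYC_Twist1_OFF than in MYC_Twist1_HCC (-0.64, adjusted p = 0.0212) and higher in MYC_Recur than in MYC_OFF (0.68, adjusted p = 0.0267). Of the genes tested in that fit, 58.2%, 51.3% and 54.2% were called in these comparisons. With median of ratios scaling in addition these 3 calls were lost, at -0.19 (adjusted p = 0.464), -0.21 (adjusted p = 0.3755) and 0.019 (adjusted p = 0.9502). Without those 2 libraries and with the deposited scaling, Krt7 had the sign of Krt8 in these 3 comparisons, with smaller changes.

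Krt19, the acidic keratin most used to mark bile ducts (chr11:100140810-100148665, minus strand), was near 0 throughout. Its values were 0.17, 0.05 and 0.13 in MYC_Recur, 0, 0.04 and 0.04 in MYC_Twist1_OFF, 0, 0.05 and 0.06 in MYC_OFF, 0.13, 0.17, 0.04, 0.17 and 0.14 in MYC_Twist1_HCC, and 0.24, 0.28, 0.30, 0.59 and 1.64 in MYC_HCC. The 5 MYC_HCC libraries held the 5 highest values. Tested without the filter, Krt19 was lower in MYC_OFF than in MYC_HCC (log2 fold change -0.57, SE 0.17, limma adjusted p = 0.01335), in a fit of 19324 genes that called 42.5% of them. MYC_HCC 4 and 5 held the highest values, and without both of them the difference was -0.30 (adjusted p = 0.00025, 40.7% of genes called). With MYC_HCC 5 alone left out it was -0.38 (adjusted p = 0.0006549, 39.6% called). In MYC_Recur against MYC_HCC (-0.47, adjusted p = 0.119) and in MYC_Twist1_HCC against MYC_HCC (-0.45, adjusted p = 0.1059) it did not pass with all libraries. The first of these was called without MYC_HCC 5 (-0.27, adjusted p = 0.04076, 5.01% of genes called) and without MYC_HCC 4 and 5 (-0.19, adjusted p = 0.04532, 4.09% called), and the second was -0.17 without both (adjusted p = 0.07018).

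Krt23, an acidic keratin that rises in injured mouse liver (chr11:99477974-99493137, minus strand), never reached 1. It was 0.06, 0 and 0.02 in MYC_Recur, 0.40, 0.35 and 0.07 in MYC_Twist1_OFF, 0.62, 0.04 and 0.17 in MYC_OFF, 0.04, 0.02, 0, 0.05 and 0.02 in MYC_Twist1_HCC, and 0, 0.07, 0, 0.40 and 0 in MYC_HCC. The groups overlapped, and no comparison called it without the filter. Sox9, a transcription factor of bile duct cells and progenitors (chr11:112782224-112787760, plus strand), reached 1 in 2 libraries only. Its values were 0.20, 0.08 and 0.04 in MYC_Recur, 0.34, 0.20 and 1.88 in MYC_Twist1_OFF, 0.48, 0.29 and 0.10 in MYC_OFF, 0.76, 1.68, 0.18, 0.31 and 0.09 in MYC_Twist1_HCC, and 0.02, 0, 0.02, 0.21 and 0.09 in MYC_HCC. It was not called in any comparison either (for MYC_Twist1_HCC against MYC_HCC, 0.51, adjusted p = 0.258). Krt19 and Sox9, defining markers of bile ducts, were thus at or near 0 in most libraries of all 5 groups, and the label of the 9 genes describes their use as markers and not a bile duct cell content measured here.

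Epcam, an adhesion protein of bile duct and progenitor cells (chr17:87635979-87651129, plus strand), varied widely within groups. It had values of 2.61, 2.71 and 14.6 in MYC_Recur, 6.80, 1.77 and 6.52 in MYC_Twist1_OFF, 0.89, 2.48 and 1.36 in MYC_OFF, 4.42, 3.10, 8.22, 7.51 and 7.22 in MYC_Twist1_HCC, and 13.9, 0.95, 11.8, 0.56 and 41.3 in MYC_HCC. The MYC_HCC libraries alone spanned the range of every other group. Epcam was not called in any comparison, with a log2 fold change of -1.60 in MYC_OFF against MYC_HCC (95% interval -3.33 to 0.14, adjusted p = 0.105). That difference was called when MYC_HCC 2 (-2.09, adjusted p = 0.0338) or MYC_HCC 4 (-2.17, adjusted p = 0.0198), the low libraries, was left out, in fits that called 55.6% and 61.1% of genes.

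Cd24a, a small glycoprotein anchored to the surface of progenitor cells and of several blood cell types (chr10:43578284-43584265, plus strand), followed Krt18. Its values were 0.41, 0.78 and 1.05 in MYC_Recur, 5.98, 4.45 and 7.54 in MYC_Twist1_OFF, and 9.24, 12.9 and 4.81 in MYC_OFF. They were 1.26, 1.02, 1.91, 1.35 and 1.99 in MYC_Twist1_HCC and 0.60, 0.80, 0.82, 2.25 and 3.05 in MYC_HCC. The 6 OFF libraries lay above the other 13, the nearest being 4.45 and 3.05. Cd24a had a log2 fold change of 2.01 in MYC_OFF against MYC_HCC (SE 0.32, 4.03-fold, limma adjusted p = 4.63e-05) and of 1.47 in MYC_Twist1_OFF against MYC_Twist1_HCC (SE 0.32, 2.77-fold, adjusted p = 0.001317). In MYC_Recur against MYC_OFF it fell by 2.44 (SE 0.36, 5.44-fold, adjusted p = 3.152e-05).

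Blood cell markers were called in both directions, some with and some against Cd24a. Of 16 listed B cell, T cell and neutrophil markers, 7 were tested, and in MYC_OFF against MYC_HCC 2 rose and 1 fell, or 4 and 1 with median of ratios scaling. The receptor gene Csf3r rose by 4.24 (adjusted p = 4.707e-06) and S100a9, also a neutrophil gene, fell by 1.76 (adjusted p = 0.0003831). Summed over the 14 list genes in the table, the values ran from 44.7 to 75.2 in MYC_Recur, 56.6 to 142 in MYC_Twist1_OFF, 40.1 to 273 in MYC_OFF, 34.0 to 63.0 in MYC_Twist1_HCC and 23.5 to 64.8 in MYC_HCC, with 2 of the 14 at 0 in each library of MYC_Recur, MYC_Twist1_OFF and MYC_OFF. Of the 6 tested erythroid markers, 4 rose and 1 fell there. Those that rose included Klf1 at 1.85, Hbb-b2 at 1.77 and Alas2 at 0.69, and Hba-a1 fell, at -1.49. Of all tested genes, 18.9% were called higher and 39.4% lower in MYC_OFF against MYC_HCC. In MYC_Recur against MYC_OFF, where Cd24a fell, 2 of the 7 rose and 1 fell, or 2 and 3 with median of ratios scaling. Csf3r fell by 4.07 in that comparison, while S100a9 rose by 2.90 and Cd79b, a B cell gene, by 3.1. Of the 6 erythroid markers, 2 rose and 2 fell in it, where 37.5% of all tested genes were called higher and 12% lower. The part of these markers in the Cd24a result was not tested.

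Spp1 encodes osteopontin, a secreted protein made by bile duct cells, activated stellate cells and macrophages (chr5:104435118-104441050, plus strand). Its values were 7.81, 8.65 and 3.10 in MYC_Recur, 2.32, 3.87 and 3.10 in MYC_Twist1_OFF, and 3.48, 2.54 and 1.90 in MYC_OFF. They were 6.29, 6.34, 9.28, 8.57 and 7.87 in MYC_Twist1_HCC and 7.38, 10.03, 5.56, 10.3 and 19.8 in MYC_HCC. The OFF libraries lay below all 10 HCC libraries, while MYC_Recur 3 lay among the OFF values. Spp1 fell by 1.58 in MYC_OFF against MYC_HCC (SE 0.33, limma adjusted p = 0.0005239) and by 1.09 in MYC_Twist1_OFF against MYC_Twist1_HCC (SE 0.33, adjusted p = 0.01221). The second call was lost with median of ratios scaling (-0.73, adjusted p = 0.0684) and without MYC_Twist1_OFF 1 (-0.94, adjusted p = 0.0637).

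In MYC_Recur against MYC_OFF, Spp1 rose by 0.97 (SE 0.37, adjusted p = 0.0354), a call that ended with other scalings (0.44 with adjusted p = 0.321 by median of ratios, and 0.59 with adjusted p = 0.190 by a trimmed mean of M values). It also ended when MYC_OFF 2, MYC_OFF 3, MYC_Recur 1 or MYC_Recur 2 was left out, with no filter (adjusted p = 0.05415) and with only those groups in the fit (adjusted p = 0.09839). The summed values of 17 macrophage markers overlapped between groups: 748 to 1018 in MYC_Recur, 510 to 1053 in MYC_Twist1_OFF, 710 to 780 in MYC_OFF, 567.7 to 795 in MYC_Twist1_HCC and 351 to 1002 in MYC_HCC, with none of the 17 at 0 throughout a group. Of the 16 tested, 4 rose and 3 fell in MYC_OFF against MYC_HCC, where 18.9% of all tested genes were called higher and 39.4% lower. Cd163 rose by 2.59 there and C1qb fell by 2.40. With median of ratios scaling the counts of the macrophage markers were 8 and 1. Their part in the Spp1 result was not tested.

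**Figure D3:**
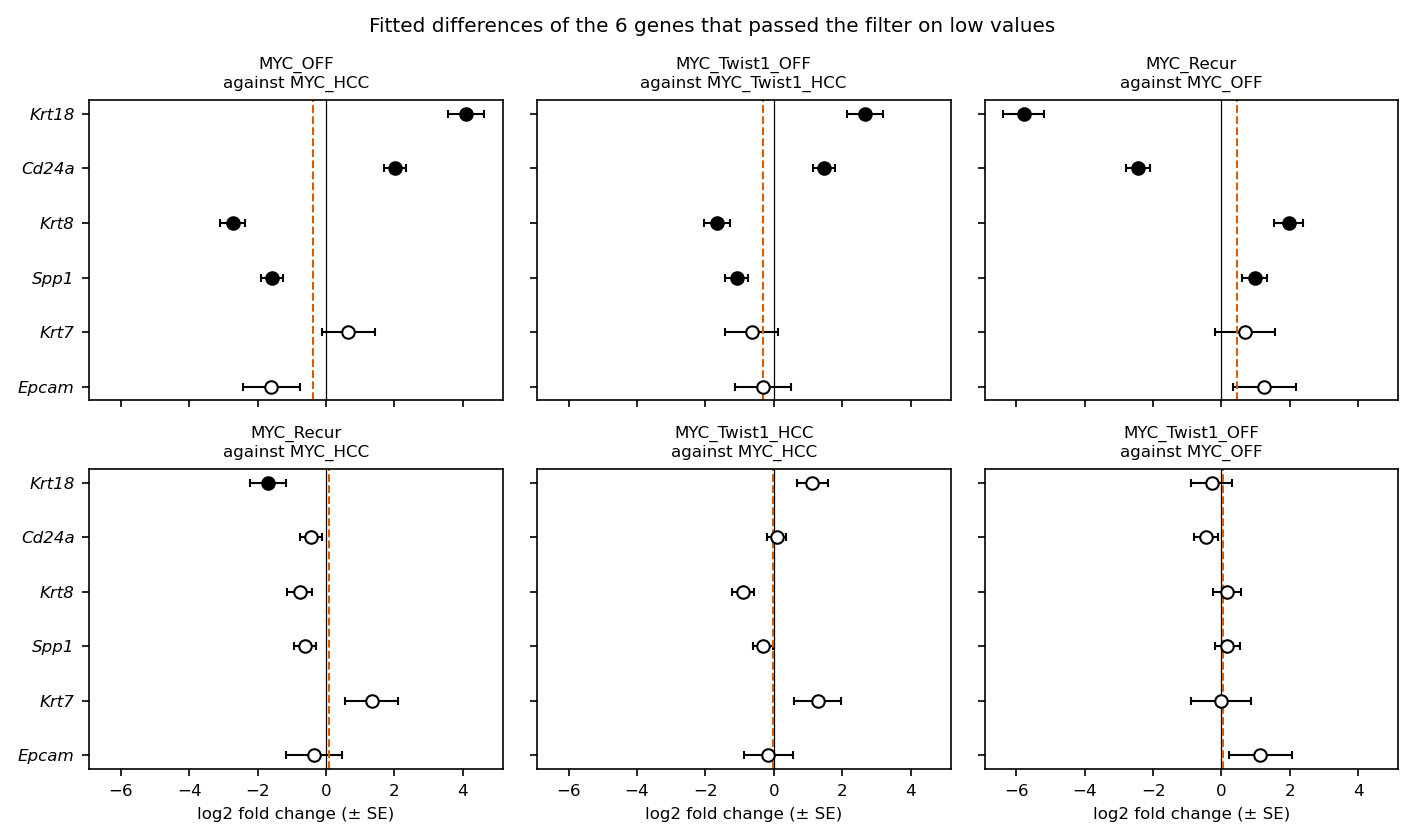
Log2 fold changes (points) with standard errors (bars) of the 6 tested genes in 6 comparisons; filled points passed an adjusted p of 0.05 in limma, open points did not, and the dashed line is the median of all tested genes. Krt18 and Cd24a lie to the right and Krt8 and Spp1 to the left of both lines in the OFF against HCC panels, and the sides are exchanged in MYC_Recur against MYC_OFF.

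Across the 19 libraries the 6 tested genes fell into loose pairings. Pearson's r of log2(value + 1) was 0.83 between Krt18 and Cd24a and 0.81 between Krt8 and Spp1, and it was -0.75 between Krt8 and Krt18 and -0.70 between Krt8 and Cd24a. Krt7 had r between -0.25 and 0.15 with the other 5. These values describe libraries that share groups and carry no test. The genes most like Krt18 were Map4k4 (a kinase, r = 0.987), Fkbp3 (a prolyl isomerase, 0.986) and Rpl34-ps1 (a ribosomal protein pseudogene by its symbol, 0.980). Map4k4, for example, ran from 1.63 to 11.6 in MYC_Recur, 127 to 265 in MYC_Twist1_OFF, 168 to 271 in MYC_OFF, 12.5 to 59.7 in MYC_Twist1_HCC and 6.55 to 16.6 in MYC_HCC.

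For Krt8 the nearest genes were Ddx27 (an RNA helicase, 0.971), Rrp1b (a nucleolar protein, 0.970) and Hnrnpa3 (an RNA-binding protein, 0.969), and for Spp1 they were Tbca (a tubulin cofactor, 0.921), Wbp1l (0.921) and Mapkapk3 (a kinase, 0.920). Those of Cd24a were Dusp6 (a phosphatase of ERK kinases, 0.939), Zdhhc18 (a palmitoyltransferase, 0.930) and Slc9a9 (a sodium-proton exchanger, 0.923). Zdhhc18 was 0.07 to 0.53 in MYC_Recur, 121 to 297 in MYC_Twist1_OFF, 86.2 to 588 in MYC_OFF, 1.63 to 4.22 in MYC_Twist1_HCC and 0.38 to 3.70 in MYC_HCC. Krt7 was nearest to Slc36a2 (an amino acid transporter, 0.966), Meg3 (a noncoding RNA, 0.963) and Fam169a (0.946). The lowest values of these genes were all in MYC_HCC, at 0.07, 0.03 and 1.09. Correlations were not computed without MYC_HCC 4 and 5, the libraries with the lowest Krt7 values. The part of those libraries in the Krt7 correlations was not tested. Epcam had no close neighbour, with Dnajb1 (a chaperone) highest at 0.816.

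Other keratins were few. Of 28 listed, 23 were in the table and 3 were tested. Krt20, a keratin of gut epithelium, averaged 13.1 ± 5.14 in MYC_Recur, 53.5 ± 25.8 in MYC_Twist1_OFF, 72.5 ± 70.1 in MYC_OFF, 19.2 ± 6.19 in MYC_Twist1_HCC and 10.2 ± 6.37 in MYC_HCC. It rose in MYC_OFF against MYC_HCC (log2 fold change 2.77, limma adjusted p = 0.002986), as did Krt12, a corneal keratin at low values (0.78, adjusted p = 0.0109). Krt10, a keratin of skin, fell there (-1.22, adjusted p = 0.02613), a call lost with median of ratios scaling. In MYC_Recur against MYC_OFF these 3 were called the other way, Krt20 at -2.02 (adjusted p = 0.0429), Krt12 at -0.68 and Krt10 at 1.96. In MYC_Twist1_OFF against MYC_Twist1_HCC limma called 0 of the 3, also at an unadjusted p under 0.05, whereas with median of ratios scaling it called 2 of the 3 higher.

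Keratin filaments are tied to desmosomes and to other filaments by linker proteins and are turned over by chaperones and ubiquitin ligases. Of 24 such genes and other filament genes, 20 were tested: 4 rose and 6 fell in MYC_OFF against MYC_HCC, and 3 rose and 6 fell in MYC_Twist1_OFF against MYC_Twist1_HCC. Their median log2 fold change was -0.40 in MYC_OFF against MYC_HCC, near the -0.38 of all genes, and with median of ratios scaling the counts were 6 and 5. Eppk1, epiplakin, a linker that binds keratins, moved like Krt18. It averaged 1.64 ± 0.69 in MYC_Recur, 39.4 ± 44.3 in MYC_Twist1_OFF, 41.9 ± 6.98 in MYC_OFF, 1.75 ± 0.93 in MYC_Twist1_HCC and 1.54 ± 0.28 in MYC_HCC, with log2 fold changes of 4.07 in MYC_OFF against MYC_HCC (adjusted p = 9.973e-07) and 3.34 in MYC_Twist1_OFF against MYC_Twist1_HCC (adjusted p = 1.876e-05).

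Dsg2, the main desmosomal cadherin of simple epithelium, rose by 1.61 in MYC_Twist1_OFF against MYC_Twist1_HCC (adjusted p = 8.43e-05). Genes that fell in MYC_OFF against MYC_HCC included Lmnb2, a nuclear lamin (-2.12), Dnajb6, a chaperone known to bind keratin 18 (-1.66), and Stub1, a ubiquitin ligase (-1.52). In MYC_Recur against MYC_OFF 7 of the 20 rose and 3 fell, with Lmnb2 at 2.18, Pkp2, a desmosomal plaque protein, at 2.09 and Eppk1 at -4.04. With median of ratios scaling 4 rose and 5 fell.

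Cholangiocyte markers, apart from the 9 genes, gave no common direction. Of 26 listed, 14 were tested; 2 rose and 4 fell in MYC_OFF against MYC_HCC, and 1 rose and 5 fell in MYC_Twist1_OFF against MYC_Twist1_HCC, with 2 and 2 and 1 and 3 under median of ratios scaling. Pkd2, a channel of the primary cilium, rose by 1.01 in MYC_OFF against MYC_HCC (adjusted p = 0.0143). Cftr, the chloride channel that defines bile duct epithelium, was at most 0.25 in any library of MYC_OFF and at most 0.10 in any other group. Summed over the 26 genes, values overlapped between all groups, from 98.8 in MYC_HCC to 282 in MYC_Twist1_HCC.

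Progenitor and oncofetal surface markers, 14 tested of 19 listed, included 3 that rose and 6 that fell in MYC_OFF against MYC_HCC, and 7 that rose and 1 that fell in MYC_Recur against MYC_OFF. With median of ratios scaling these counts were 4 and 3, and 3 and 4, so the list had no direction that held. Of all tested genes, with the deposited scaling, 39.4% were called lower in the first comparison and 37.5% higher in the other. Thy1, which is also a stellate cell marker, rose by 2.85 in MYC_OFF against MYC_HCC (adjusted p = 6.758e-06) and fell by 2.77 in MYC_Recur against MYC_OFF. Anpep, aminopeptidase N, fell by 2.30, Lgals3, galectin-3, by 1.28 and Cdh1, E-cadherin, by 2.98 in MYC_OFF against MYC_HCC. E-cadherin averaged 94.9 ± 9.46 in MYC_Recur, 7.30 ± 0.39 in MYC_Twist1_OFF, 9.04 ± 2.21 in MYC_OFF, 67.3 ± 17.8 in MYC_Twist1_HCC and 101 ± 52.9 in MYC_HCC. In MYC_Recur against MYC_HCC, Cd44, a hyaluronan receptor that also binds osteopontin, was called from this list (1.02, adjusted p = 0.008212).

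Notch signalling directs liver progenitors toward bile duct fate. Of 14 tested pathway genes, 1 rose and 8 fell in MYC_OFF against MYC_HCC, none rose and 7 fell in MYC_Twist1_OFF against MYC_Twist1_HCC, and 7 rose and 1 fell in MYC_Recur against MYC_OFF. Under median of ratios scaling these were 1 and 5, 1 and 5, and 2 and 1. Of all tested genes, with the deposited scaling, 39.4% and 33.5% were called lower in the OFF against HCC comparisons. In MYC_Recur against MYC_OFF, 37.5% were called higher. Hes1, a direct Notch target, averaged 11.2 ± 0.92 in MYC_Recur, 3.57 ± 0.36 in MYC_Twist1_OFF, 4.58 ± 0.81 in MYC_OFF, 9.93 ± 2.20 in MYC_Twist1_HCC and 12.8 ± 3.30 in MYC_HCC, and it fell by 1.28 in MYC_OFF against MYC_HCC (adjusted p = 7.127e-05). Mib1, a ligase needed for ligand uptake, fell by 1.82 and Adam10, the protease that cleaves the receptor, by 1.53, while Jag2, a ligand, rose by 1.34.

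YAP and TEAD, the effectors of Hippo signalling, are known to drive Sox9 and other biliary genes in liver. Of 14 tested genes of this pathway, 1 rose and 2 fell in MYC_OFF against MYC_HCC, and 2 rose and 2 fell in MYC_Twist1_OFF against MYC_Twist1_HCC. Median of ratios scaling gave 3 and 2, and 5 and 2. In MYC_OFF against MYC_HCC the 3 called genes were Nf2, Wwtr1 and Yap1, regulators of the pathway. Nf2, merlin, an upstream inhibitor of YAP, averaged 20.9 ± 5.61 in MYC_Recur, 1.13 ± 1.13 in MYC_Twist1_OFF, 1.01 ± 0.79 in MYC_OFF, 11.4 ± 3.15 in MYC_Twist1_HCC and 21.96 ± 0.99 in MYC_HCC, and fell by 3.59 in MYC_OFF against MYC_HCC (adjusted p = 1.078e-07). TAZ, the YAP relative that Wwtr1 encodes, fell by 1.37 and Yap1 itself rose by 0.97 (adjusted p = 0.0116).

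Osteopontin acts through integrins and CD44. Of 9 tested genes for its receptors and processing, 2 rose and 6 fell in MYC_OFF against MYC_HCC, which became 2 and 2 with median of ratios scaling. Of all tested genes, 18.9% were called higher and 39.4% lower there with the deposited scaling. Itga5, an integrin chain that takes part in osteopontin binding, averaged 16.0 ± 2.57 in MYC_Recur, 3.79 ± 0.10 in MYC_Twist1_OFF, 4.06 ± 0.65 in MYC_OFF, 12.5 ± 3.03 in MYC_Twist1_HCC and 15.0 ± 2.47 in MYC_HCC, and fell by 1.65 in MYC_OFF against MYC_HCC (adjusted p = 3.226e-06), like Spp1. Itga9, another receptor chain, rose by 1.65 (adjusted p = 0.0003083). In MYC_Recur against MYC_OFF 5 of the 9 rose and none fell, Itga5 by 1.74 and Cd44 by 1.74, and with median of ratios scaling 2 rose and 1 fell. Of all tested genes, 37.5% were called higher in that comparison with the deposited scaling.

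Hepatocyte markers moved with Krt8. Of 21 tested, 1 rose and 16 fell in MYC_OFF against MYC_HCC, 1 rose and 11 fell in MYC_Twist1_OFF against MYC_Twist1_HCC, and 13 rose and 1 fell in MYC_Recur against MYC_OFF. Of all tested genes, 39.4% and 33.5% were called lower in the OFF against HCC comparisons, and 37.5% higher in MYC_Recur against MYC_OFF. With median of ratios scaling the counts of the hepatocyte markers were 1 and 13, 2 and 9, and 7 and 2. Their summed values ran from 10106 to 12244 in MYC_Recur, 5221 to 5947 in MYC_Twist1_OFF, 5247 to 5778 in MYC_OFF, 8469 to 11413 in MYC_Twist1_HCC and 11543 to 23080 in MYC_HCC, so the OFF libraries lay below all others, as they did for Krt8. Albumin fell by 2.79 in MYC_OFF against MYC_HCC (adjusted p = 2.092e-06), and Ass1, a urea cycle enzyme, rose by 1.40 (adjusted p = 0.003796). The part of hepatocyte content in the Krt8 result was not tested.

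**Figure D4:**
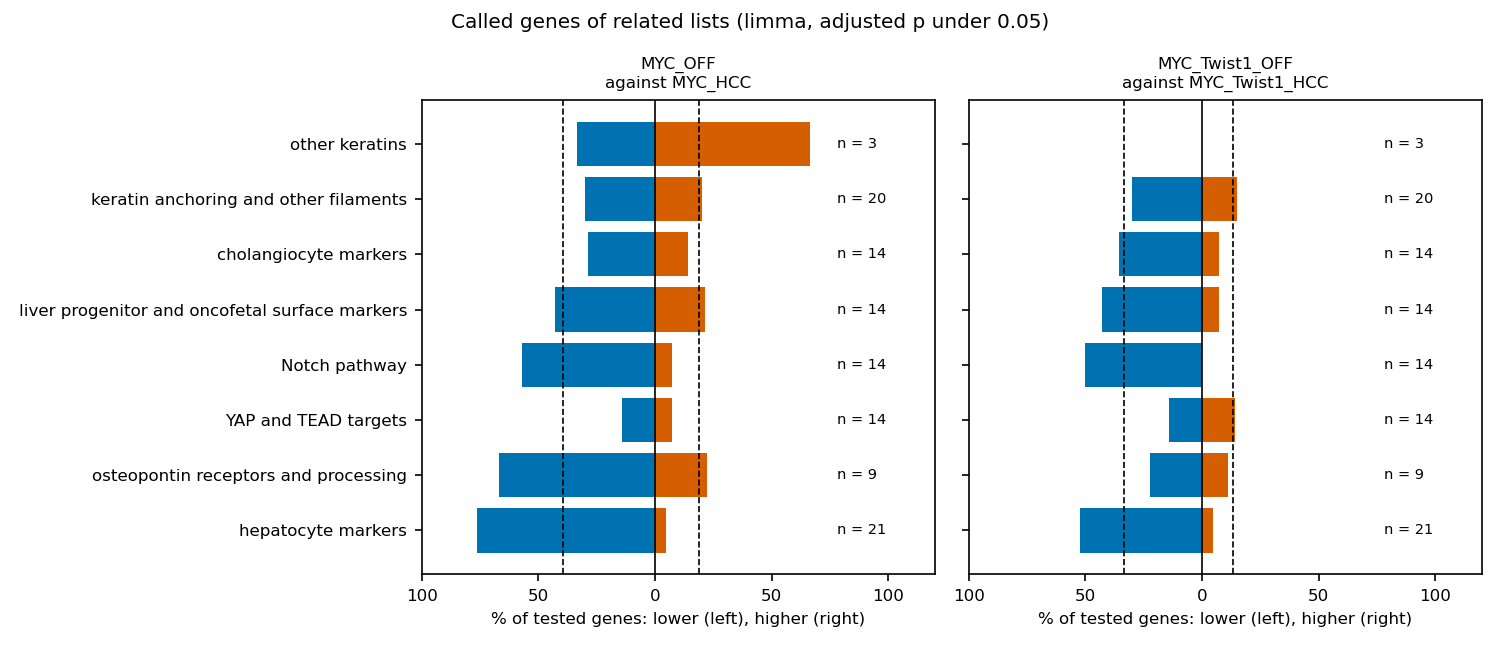
Share of the tested genes of 8 related lists that were called lower (left of 0) or higher (right of 0), in percent, in the OFF against HCC comparisons; n is the number of tested genes and the dashed lines are the shares among all tested genes. Hepatocyte, Notch and, by less, progenitor genes called lower pass the dashed line in both panels. Osteopontin receptor genes called lower pass it in MYC_OFF against MYC_HCC only. Cholangiocyte markers called lower pass it narrowly, in MYC_Twist1_OFF against MYC_Twist1_HCC only. Other keratins called higher pass the line in MYC_OFF against MYC_HCC, at 2 of the 3 tested, and 0 of the 3 were called in the other panel. The filament and YAP lists lie near or inside the dashed lines.

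Endothelial, stellate and mesothelial lists gave mixed calls in MYC_OFF against MYC_HCC, where 18.9% of all tested genes were called higher and 39.4% lower. Of 9 tested endothelial markers 2 rose and 3 fell (4 and 2 with median of ratios scaling), with Pecam1, an endothelial adhesion protein, at 2.63 and Cdh5, VE-cadherin, at -1.96. Among 10 markers of fibroblasts and stellate cells the counts were 2 and 2, with Lrat, a retinol enzyme, at 2.38 and Col1a1 at -1.65. Of 5 mesothelial and other epithelium markers 1 rose and 2 fell. In the contrast between the tumor types and in MYC_Twist1_OFF against MYC_OFF, limma called none of the 159 tested list genes, of which 12 and 3 had an unadjusted p under 0.05. The share of all tested genes at that unadjusted threshold was not counted.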

How the data were processed

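RNA of 19 flash-frozen mouse liver tumor samples was extracted with a Qiagen RNeasy kit and sequenced from BGI libraries, per the labels' protocols. The tools named in the submitters' processing notes are DESeq2, featureCounts, Picard, STAR and Trimmomatic, with mm10 as the build; versions and settings were not given in the sources used here. Normalized signals of an unstated formula were deposited in 1 table by gene symbol with 19511 rows, of which 25 bare numbers were left out (at most 0.16% of a library's total). Depth is unknown, so no counting intervals are given, and since nothing shows separate animals, the spread behind each p-value may be technical. A count test had been planned; as the values are no counts, limma 3.58.1 in R 4.3.3 was run on log2(value + 1) with its trend option, in 1 fit of 5 group means with 14 residual degrees of freedom, on genes of at least 1 in at least 3 libraries. Fold changes are on that scale, which understates the change of low genes; tests were two-sided, with Benjamini-Hochberg adjustment within each comparison. The fit was also run on simulated data with independent normal noise and a small share of shifted genes. Far more genes were called in the OFF against HCC comparisons, so the simulation does not cover that setting. The 7 comparisons, the alternatives in the closing section and the pathway and cell type lists were set down with earlier results of these data known, as were the 9 genes. Named list genes are up to 4 called genes of smallest p per list and comparison, plus 1 of the other direction; likeness names the 3 genes of highest Pearson r. Coordinates are from GENCODE on GRCm38.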

Additional observations from a re-analysis of the deposited data

Results flagged for a closer look

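Krt23 had a value of 0.4 in MYC_HCC 4, against 0 to 0.07 in the other 4 MYC_HCC libraries. On the log2 scale its gap to the nearest of them was 0.799 of the group's range, above the critical value of 0.71 for 5 libraries. Among 20 pairs of gene and group of that size this was the 1 found, and for normally distributed values chance gives about 1 in 20. Here 3 of the 5 values were 0 and all lay under the filter value of 1. The critical value and that rate therefore do not strictly apply. MYC_HCC 4 is also the library with the lowest Krt7 and Epcam values of its group.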

How the results depend on the processing

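The calls of Krt18, Krt8 and Cd24a in MYC_OFF against MYC_HCC, MYC_Twist1_OFF against MYC_Twist1_HCC and MYC_Recur against MYC_OFF held under each alternative run: a pseudocount of 0.1, no filter, 2 other scalings, no intensity trend, only the groups compared, the replicate block, each library left out, and MYC_HCC 4 and 5 left out, with median of ratios scaling in addition as an alternative chosen after seeing the data, as was leaving out libraries for Krt19 without the filter. With the replicate number as a block, 4, 4 and 4 of the 6 genes were called in these comparisons, as without it; same-numbered libraries correlated between -0.17 and 0.38, so the numbers were not taken to pair samples. Krt7 in MYC_OFF against MYC_HCC was -0.12 with the block. Other scalings moved the share of called genes that were higher, over all tested genes, in MYC_OFF against MYC_HCC to 51.9% (median of ratios) or 45.6% (trimmed mean of M values) from 32.5%, in MYC_Twist1_OFF against MYC_Twist1_HCC to 50.8% or 41.6% from 28.0%, in MYC_Recur against MYC_OFF to 47.9% or 56.8% from 75.8%, and in MYC_Recur against MYC_HCC to 50.3% or 52.2% from 63.7%.

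The single call in MYC_Recur against MYC_HCC became 0 with no filter, with only the groups compared, and without MYC_HCC 4 and 5 under either scaling; with single libraries left out the count ran from 0 to 1 there and from 0 to 1 in MYC_Twist1_HCC against MYC_HCC. The cause was not tested. Calls over all tested genes fell to 350 without MYC_HCC 4 and 5, against 852 with them, in MYC_Twist1_HCC against MYC_HCC, and to 834 against 1435 in MYC_Recur against MYC_HCC, where the replicate block gave 936.

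Uncalled differences changed sign as follows, with the cause not tested. Without MYC_HCC 4 and 5, first with the deposited scaling and then with median of ratios, Krt7 was -0.77 and -0.19 in MYC_OFF against MYC_HCC, -0.091 and -0.17 in MYC_Recur against MYC_HCC and -0.14 and -0.10 in MYC_Twist1_HCC against MYC_HCC, and Spp1 was 0.021 and 0.059 in the last; the Krt7 contrast between tumor types was 0.12 with the deposited scaling. Epcam was 0.098 in MYC_Twist1_HCC against MYC_HCC with a pseudocount of 0.1, and 0.059 in MYC_Twist1_OFF against MYC_Twist1_HCC with median of ratios, with or without those libraries. With single libraries left out, MYC_Twist1_HCC against MYC_HCC ran from -0.049 to 0.29 for Cd24a and -0.72 to 0.47 for Epcam; MYC_Recur against MYC_HCC from -1.04 to 0.28 for Epcam and -0.10 to 0.020 for Myc; MYC_Twist1_OFF against MYC_Twist1_HCC from -0.57 to 0.18 for Epcam; MYC_OFF against MYC_HCC from -0.24 to 1.08 for Krt7. In MYC_Twist1_OFF against MYC_OFF the ranges were -0.50 to 0.0095 for Krt18, -0.29 to 0.13 for Krt7, -0.33 to 0.57 for Krt8 and -0.37 to 0.034 for Myc, and the contrast between tumor types ran from -0.012 to 0.39 for Myc.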
